A study of Mus musculus with 12 samples.

Results

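The 6 genes described here encode transmitters of inhibitory and secretomotor neurons of the gut: Nos1, which encodes neuronal nitric oxide synthase, and the peptide precursors Vip, Gal, Npy, Cartpt and Adcyap1. They were taken by gene symbol from a table of 27179 genes, and each symbol matched 1 row. RNA was sequenced from full-thickness mouse colon cut out where diphtheria toxin and India ink had been injected into the muscle wall (4 μL at 0.33 ng/μL of toxin, with 10% ink). The 7 ablated libraries are of genotype BAF53b-Cre::R26-iDTR, in which Cre is driven from the neuronal gene for BAF53b and switches on an inducible toxin receptor at Rosa26. The 5 control libraries are of genotype R26-iDTR without Cre, and both groups had the same operation and toxin. Age, sex and the time between injection and dissection are not given in the sources used here. The libraries are numbered within each group without a statement that each is its own mouse, so the p-values speak for these libraries and their spread, which may be technical.

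Enteric inhibitory motor neurons relax the circular muscle by releasing nitric oxide, which acts on guanylyl cyclase, together with vasoactive intestinal peptide (VIP) and purines. VIP also drives secretion from submucosal neurons, many of which carry galanin or neuropeptide Y, and pituitary adenylate cyclase-activating peptide (PACAP, from Adcyap1) shares receptors with VIP. Cartpt encodes the precursor of CART peptides, which occur in myenteric neurons. In gut wall RNA these messages come mainly from cell bodies in the intramural ganglia.

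Depth was 13.4 to 26.9 M reads per library, recovered from the deposited TPM (a level scaled to transcript length and to the library total). Ablated 1 was the shallowest, and mitochondrial transcripts made up 25.6% of its TPM against 5.20 to 14.2% in the other libraries. The 6 markers fixed for enteric neurons summed to 57.9 to 149 TPM in control and 11.0 to 25.3 TPM in ablated, and 6 of 6 fell. Sums of other marker lists also separated. The 5 for enteric glia stood at 12.2 to 17.8 TPM in control and 8.67 to 11.5 TPM in ablated. The 2 for interstitial cells of Cajal stood at 88.8 to 115 and 126 to 181 TPM. The 4 for sympathetic neurons stood at 4.05 to 9.44 and 0.688 to 2.99 TPM, and Dbh among them fell (limma adjusted p = 0.00624). None of the 7 glial and interstitial cell genes passed the test described below. The nearest were Ano1, at 84.3 ± 10.6 and 126 ± 21.3 TPM (limma adjusted p = 0.0504), and Fabp7, at 1.17 ± 0.413 and 0.340 ± 0.302 TPM (0.0536). The part of these lists in the transmitter levels was not tested. In whole tissue, fewer cells of a type and less RNA per cell cannot be told apart.

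The upstream sequences of 3 peptide genes are shown as examples: Vip, Adcyap1 (its relative in the same peptide family) and Gal. Each is the 250 bases before the RefSeq start site (GRCm38.p6; for Adcyap1, the upstream one of 2), written 5′ to 3′ on the strand of the gene, and capitals mark TGACGTC, the core of the cyclic AMP response element. They lie at chr10:5638968-5639217 (+) for Vip, chr17:93198767-93199016 (+) for Adcyap1 and chr19:3414545-3414794 (-) for Gal, and none overlaps an annotated exon.
Vip: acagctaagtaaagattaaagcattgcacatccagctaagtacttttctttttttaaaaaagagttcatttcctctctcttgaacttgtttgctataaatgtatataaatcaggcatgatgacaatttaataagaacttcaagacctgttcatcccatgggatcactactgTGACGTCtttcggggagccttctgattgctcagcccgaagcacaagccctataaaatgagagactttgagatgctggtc
Adcyap1: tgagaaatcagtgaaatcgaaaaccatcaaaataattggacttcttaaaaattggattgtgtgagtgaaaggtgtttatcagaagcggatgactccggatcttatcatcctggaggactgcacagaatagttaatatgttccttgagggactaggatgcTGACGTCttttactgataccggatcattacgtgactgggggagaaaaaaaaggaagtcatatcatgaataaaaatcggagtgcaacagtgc
Gal: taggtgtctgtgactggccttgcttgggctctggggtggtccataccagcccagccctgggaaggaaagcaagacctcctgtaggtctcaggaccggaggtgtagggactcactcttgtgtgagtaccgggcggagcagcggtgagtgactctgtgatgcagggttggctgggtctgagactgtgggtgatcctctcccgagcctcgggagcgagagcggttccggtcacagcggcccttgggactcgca
Searched on both strands, TGACGTC began 79 bases before the start of Vip and 91 bases before that of Adcyap1. Cartpt also held a match, beginning 112 bases before its RefSeq start and extending to the longer TGACGTCA; that window overlaps an exon of another annotated transcript. The letters were not in the windows of Gal, Npy and Nos1 (those of Npy and Nos1 overlap no annotated exon either and are not shown). The RefSeq start used for Nos1, at 117866839, lies inside the annotated gene and not at its outer end. Its window therefore says nothing about the sequence before the outer start of Nos1. Of all 32851 promoter windows of this length, 2.78% held TGACGTC and 1.55% held TGACGTCA. Counted per gene, with a match in any of its windows, the shares were 5.10% and 2.93% among the 11950 genes tested here that had a window. Among the 116 of them called lower in ablated they were 7.76% and 6.03%. A gene can have several windows, so the shares per gene and per window are not directly comparable. Whether the letters bear on the response was not tested.

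In control colon, Vip stood highest, at 84.7 ± 28.3 TPM (SD, n = 5), above every other member in every library. Gal followed at 16.5 ± 4.66 TPM, Cartpt at 7.79 ± 1.47 TPM and Npy at 4.54 ± 1.70 TPM, and the ranges of neighbours in that order overlapped. Adcyap1 at 0.970 ± 0.350 TPM and Nos1 at 0.967 ± 0.399 TPM lay below all control values of Npy, and their ranges overlapped. In ablated colon the order of means was the same (n = 7), but Vip at 10.8 ± 9.26 TPM and Gal at 10.2 ± 8.65 TPM had become nearly equal. The ranges of Vip, Gal, Cartpt and Npy overlapped between neighbours there, as did those of Npy and Adcyap1 and of Adcyap1 and Nos1.

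Of the 6 transmitter genes, 2 fell in the ablated group, Nos1 and Vip, and none rose. The test was limma on log2(TPM + 0.5) with Benjamini-Hochberg adjustment over all genes and a threshold of 0.05. Genes needed 0.5 TPM in at least 5 libraries, which 5 members met, and over the 16164 genes that did, 1.43% were called in either direction, 1.01% lower and 0.421% higher. Nos1 did not meet that minimum and was read from the same fit with no minimum, where 1.53% of 22842 genes were called and 1.20% lower. The median log2 fold change of all genes tested was 0.03.

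**Figure D1:**
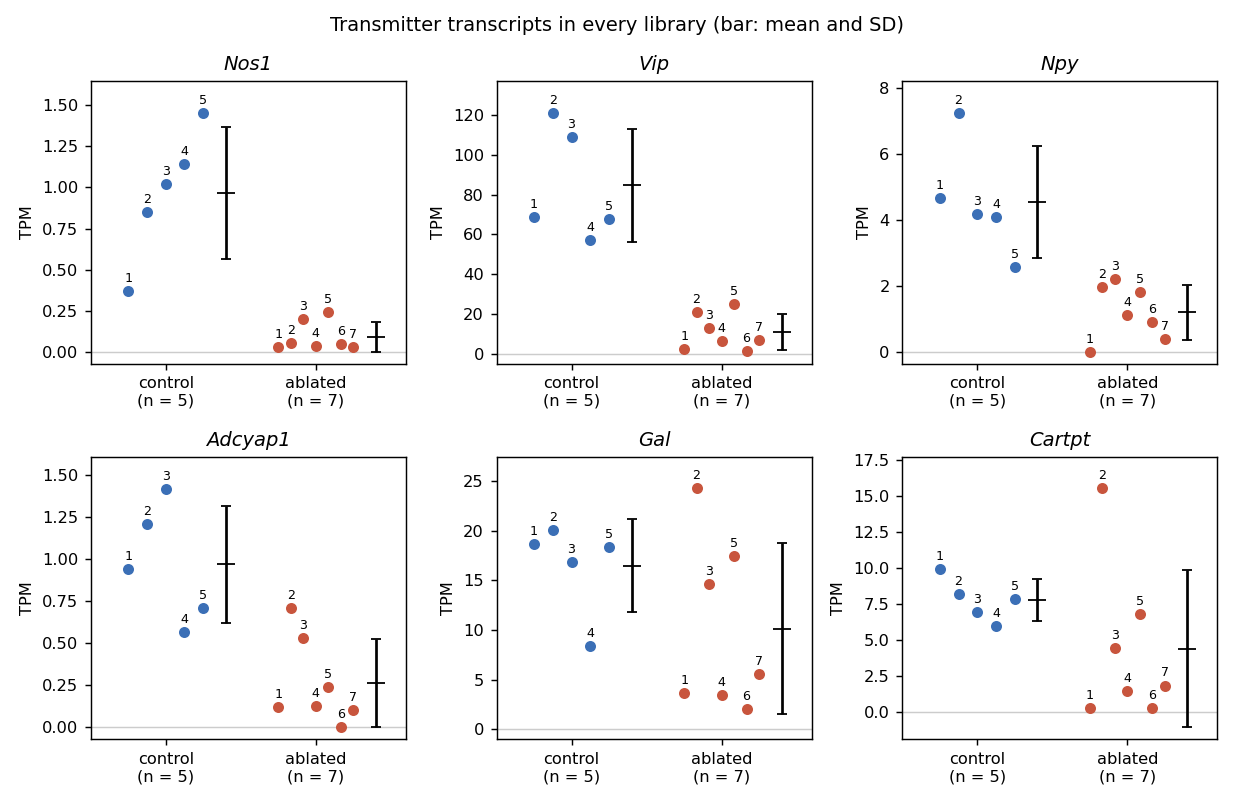
TPM (vertical axes, linear, a different range for each gene) of the 6 transmitter genes in 5 control (blue) and 7 ablated (red) libraries, with library numbers beside the points and bars for mean and SD. Nos1, Vip and Npy separate completely, while Gal and Cartpt in ablated 2 reach 24.3 and 15.6 TPM, above every control.

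Nos1, on chromosome 5 (117781032 to 117958840 in mm10, plus strand), encodes the enzyme that makes nitric oxide in neurons. It stood at 0.370, 0.851, 1.02, 1.14 and 1.45 TPM in control 1 to 5 and at 0.0294, 0.0567, 0.200, 0.0397, 0.246, 0.0477 and 0.0320 TPM in ablated 1 to 7. The groups did not overlap, as for 1.48% of genes in that fit in the lower direction, and ablated 3 and 5 were the highest of the ablated libraries at 20.7% and 25.5% of the control mean. The mean fell 10.4-fold, to 0.0931 ± 0.0903 TPM. The log2 fold change was -1.27 (95% interval -1.66 to -0.89, limma adjusted p = 0.00252). That value is compressed by the added constant: on the recovered reads limma-voom gave -3.63 (adjusted p = 0.00110). Nos1 rested on 263 reads in control and 35 in ablated, 1 to 13 per ablated library. A predicted gene on the same strand and an antisense gene overlap its locus, and whether counting used strand is not given in the sources used here.

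Vip, on chromosome 10 (5639218 to 5647617, plus strand), encodes the precursor of VIP. Control 1 to 5 had 68.6, 121, 109, 57.3 and 67.7 TPM, and ablated 1 to 7 had 2.37, 21.0, 13.0, 6.11, 25.1, 1.32 and 6.81 TPM. Every ablated library lay under every control, and within the ablated group ablated 2 and 5 kept 24.8% and 29.7% of the control mean while ablated 6 kept 1.56%. The mean fell 7.83-fold, a log2 fold change of -3.37 (-4.65 to -2.10, limma adjusted p = 0.00997).

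Npy, on chromosome 6 (49822710 to 49829507, plus strand), encodes neuropeptide Y, a peptide of submucosal secretomotor neurons and also of sympathetic nerves. It measured 4.66, 7.23, 4.18, 4.07 and 2.57 TPM in control and 0, 1.97, 2.19, 1.12, 1.82, 0.892 and 0.386 TPM in ablated. The groups did not overlap, which held in the lower direction for 1.55% of the genes tested, and the control mean was 3.80 times the ablated mean of 1.20 ± 0.834 TPM. The difference narrowly missed the threshold (log2 fold change -1.71, -2.57 to -0.85, limma adjusted p = 0.0553), with 150 reads in control and 57 in ablated. Over the alternatives the adjusted p ran from 0.0113 to 0.266, and it passed under 9 of 26: 7 of the 14 other settings, and without ablated 1 (0.0325) or ablated 3 (0.0402). The 0 in ablated 1 means no read, and a count of 0 allows up to 0.707 TPM (3 reads, counting error only). Markers of sympathetic neurons summed to 4.05 to 9.44 TPM in control and 0.688 to 2.99 TPM in ablated, and 1 of the 2 tested fell: Dbh, the enzyme that makes noradrenaline, from 2.93 ± 1.58 to 0.181 ± 0.193 TPM (adjusted p = 0.00624). The defining markers Th and Slc6a2 were at or near 0, at most 0.462 and 0.0921 TPM in any library.

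Adcyap1, on chromosome 17 (93199017 to 93206537, plus strand), encodes PACAP. It stood at 0.941, 1.21, 1.42, 0.570 and 0.709 TPM in control and at 0.123, 0.713, 0.534, 0.125, 0.238, 0 and 0.101 TPM in ablated. Of the 7 ablated libraries, 6 lay under the lowest control and ablated 2 lay among the controls. The control mean was 3.70 times that of ablated, and the log2 fold change of -0.98 (-1.51 to -0.46) did not pass (limma adjusted p = 0.0746, and 0.0191 to 0.234 over the alternatives). It passed without ablated 2 (0.0309). The values rest on 123 and 46 reads, and the 0 in ablated 6 allows up to 0.10 TPM.

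Gal, on chromosome 19 (3409915 to 3414544, minus strand), encodes galanin. Control 1 to 5 had 18.7, 20.1, 16.9, 8.43 and 18.4 TPM, and ablated 1 to 7 had 3.69, 24.3, 14.6, 3.49, 17.5, 2.0 and 5.53 TPM. The ablated libraries were spread over a wide range: ablated 2, 3 and 5 had 147%, 88.6% and 106% of the control mean, and the other 4 had 12.1 to 33.5%. The groups overlapped, and the log2 fold change was -1.07 (-2.23 to 0.08, limma adjusted p = 0.467).

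Cartpt, on chromosome 13 (99898489 to 99901091, minus strand), showed the same split. It measured 9.94, 8.20, 6.98, 6.01 and 7.84 TPM in control and 0.295, 15.6, 4.48, 1.50, 6.85, 0.319 and 1.85 TPM in ablated. Ablated 2 stood above every control at 200% of their mean, while ablated 1 and 6 were at 3.79% and 4.09%. The log2 fold change was -1.49 (-2.90 to -0.08, limma adjusted p = 0.382).

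The authors' deposited table, made with edgeR, gives log2 fold changes of -3.38 for Nos1 (false discovery rate 0.00304) and -3.03 for Vip (0.0145). In the authors' deposited table Npy has -1.95 (0.0981), Adcyap1 -1.94 (0.215), Cartpt -0.86 (0.786) and Gal -0.75 (0.724). The same 2 genes are under 0.05 there as in the limma fits.

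**Figure D2:**
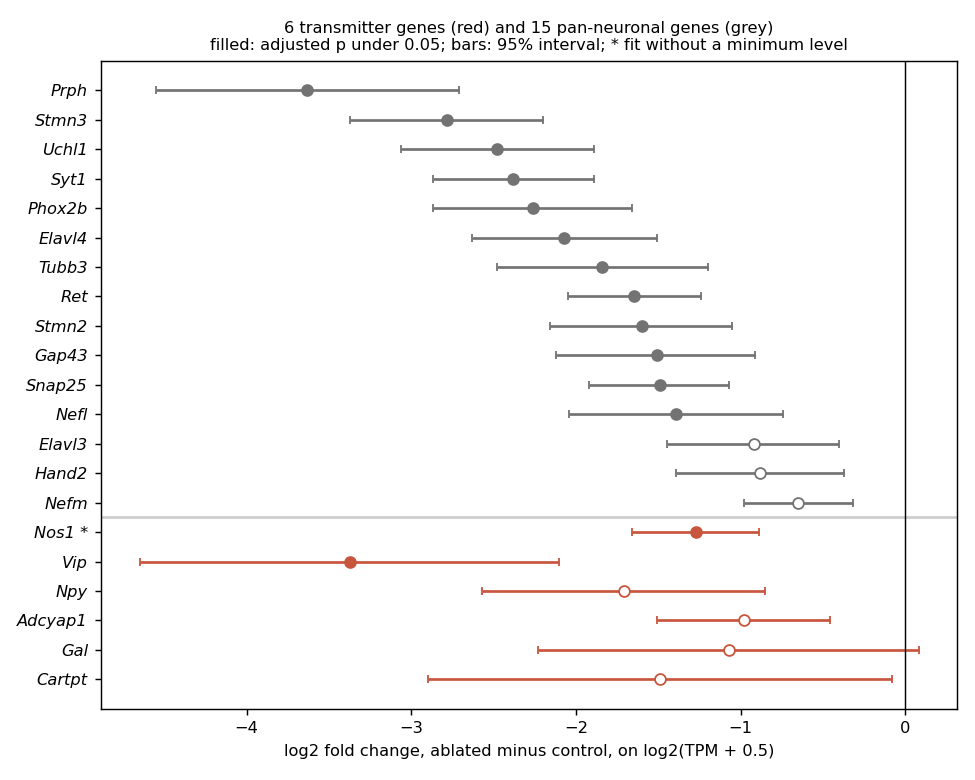
Log2 fold change on log2(TPM + 0.5), ablated minus control (horizontal axis), with 95% intervals from limma for the 6 transmitter genes (red) and the 15 pan-neuronal genes tested (grey); filled points have an adjusted p under 0.05, and the star marks the fit with no minimum. Vip at -3.37 lies near Prph at -3.63, whereas the interval of Gal reaches 0.08.

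The spread among ablated libraries was wide for most of the peptides. The SD of log2(TPM + 0.5) within the ablated group was 1.62 for Cartpt, 1.43 for Vip, 1.27 for Gal and 0.89 for Npy, against 0.25, 0.47, 0.49 and 0.48 in control. The median SD over all genes tested was 0.37 in ablated and 0.20 in control, and over the pan-neuronal genes 0.48 and 0.47. For Nos1 and Adcyap1 the SD was 0.21 and 0.46 in ablated on this scale, where their low levels are compressed.

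Ablated 2, 3 and 5 were the 3 highest ablated libraries for all 6 transmitter genes by TPM, although for Nos1 the third place of ablated 2 rests on 3 reads, the same number as in ablated 6. The same held for 4 of 15 pan-neuronal genes and for 2.78% of the 16164 genes tested. The pan-neuronal score, the mean log2(TPM + 0.5) of 16 genes, was also highest there, at 1.55, 1.28 and 1.29 against 0.77 to 1.09 in the other ablated libraries and 2.39 to 3.37 in control. The smooth muscle score was 11.13 in ablated 2 and 11.63 in ablated 6, against 9.82 to 10.47 in the other 10 libraries; its part in these levels was not tested.

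**Figure D3:**
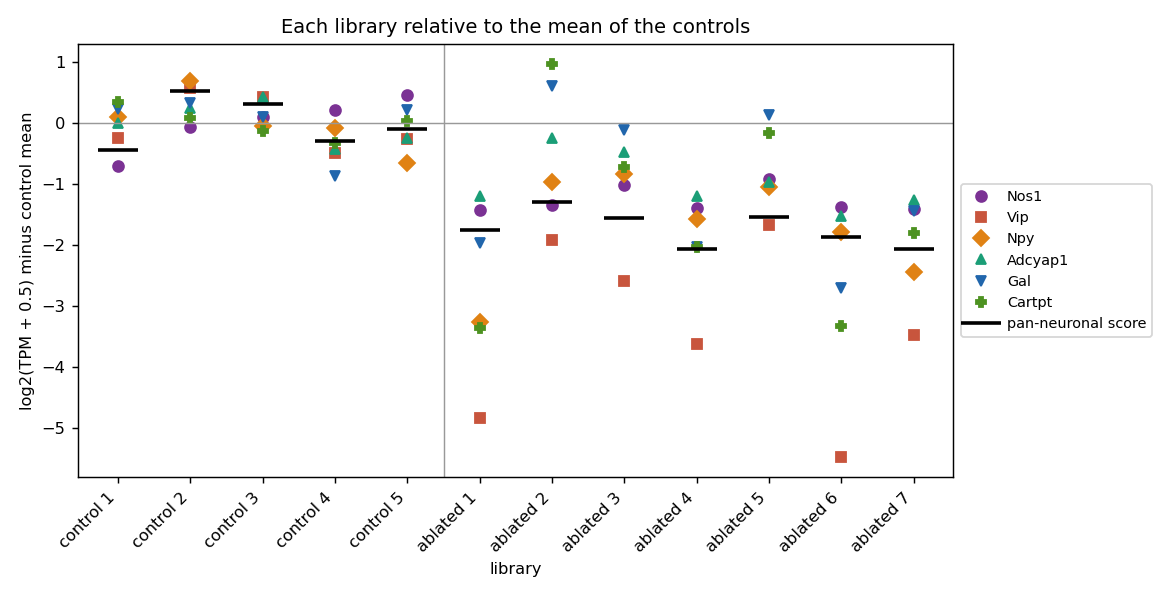
Log2(TPM + 0.5) of each transmitter gene minus its control mean (vertical axis) in each of the 12 libraries (horizontal axis), with the pan-neuronal score as black bars. Vip is the lowest symbol in all 7 ablated libraries, and Cartpt and Gal lie above 0 in ablated 2, as does Gal in ablated 5.

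The 6 genes were then compared with each other inside each library. Differences in scaling cancel there for genes well above the added constant, but not for low genes such as Nos1 and Adcyap1. On the log2(TPM + 0.5) scale Vip fell more than each of the other 5 genes: all 5 pairs with Vip passed, out of 15 tested by exact permutation of the group labels over the libraries (two-sided, smallest possible p 0.00126, adjusted over the 15). Relative to Gal, Vip dropped by 2.30 on the log2 scale (SE 0.27, exact adjusted p = 0.00947), and the groups did not overlap. Relative to Cartpt it dropped by 1.88 (SE 0.29, exact adjusted p = 0.00947), to Adcyap1 by 2.39 (SE 0.43, 0.0126) and to Npy by 1.67 (SE 0.43, 0.0142), again without overlap. Nos1 minus Vip was higher by 2.10 in ablated (SE 0.58, exact adjusted p = 0.0341), although on the TPM scale the mean of Nos1 fell 10.4-fold and that of Vip 7.83-fold. At their low level Nos1, Adcyap1 and Npy could not fall as far as Vip on the log2(TPM + 0.5) scale, even at 0 TPM. For Npy the shortfall was small. The direction of their pairs with Vip was thus set by level, so these pairs cannot decide which gene lost more. Over the other settings the difference of Vip from Adcyap1 ran from -2.61 to -1.67. The pairs with the low genes Nos1 and Npy depend on the added constant: with 0.1 in its place the differences were 1.01 and -1.22 (exact adjusted p = 0.263 and 0.174), and the Nos1 pair missed the threshold without control 1, 2 or 3 or ablated 1, 3, 4, 6 or 7 (exact adjusted p = 0.0519 to 0.0636).

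The other 10 pairs did not pass. Their differences ran from -0.73 to 0.63 on the log2 scale (exact adjusted p from 0.152 to 0.828), and the SEs from 0.26 to 0.64.

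On the TPM scale the ratio of Vip to Gal was 3.66, 6.01, 6.47, 6.80 and 3.67 in control 1 to 5 and 0.641, 0.864, 0.890, 1.75, 1.44, 0.664 and 1.23 in ablated 1 to 7. It therefore averaged 5.32 ± 1.54 in control and 1.07 ± 0.418 in ablated, and the highest ablated ratio lay under the lowest control ratio. The 5 peptide messages summed to 115 ± 32.9 TPM in control and 26.9 ± 23.4 TPM in ablated. Vip made up 73.4 ± 5.04% of that sum in control and 40.1 ± 8.08% in ablated, and Gal made up 14.6 ± 3.67% and 40.2 ± 9.05%.

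**Figure D4:**
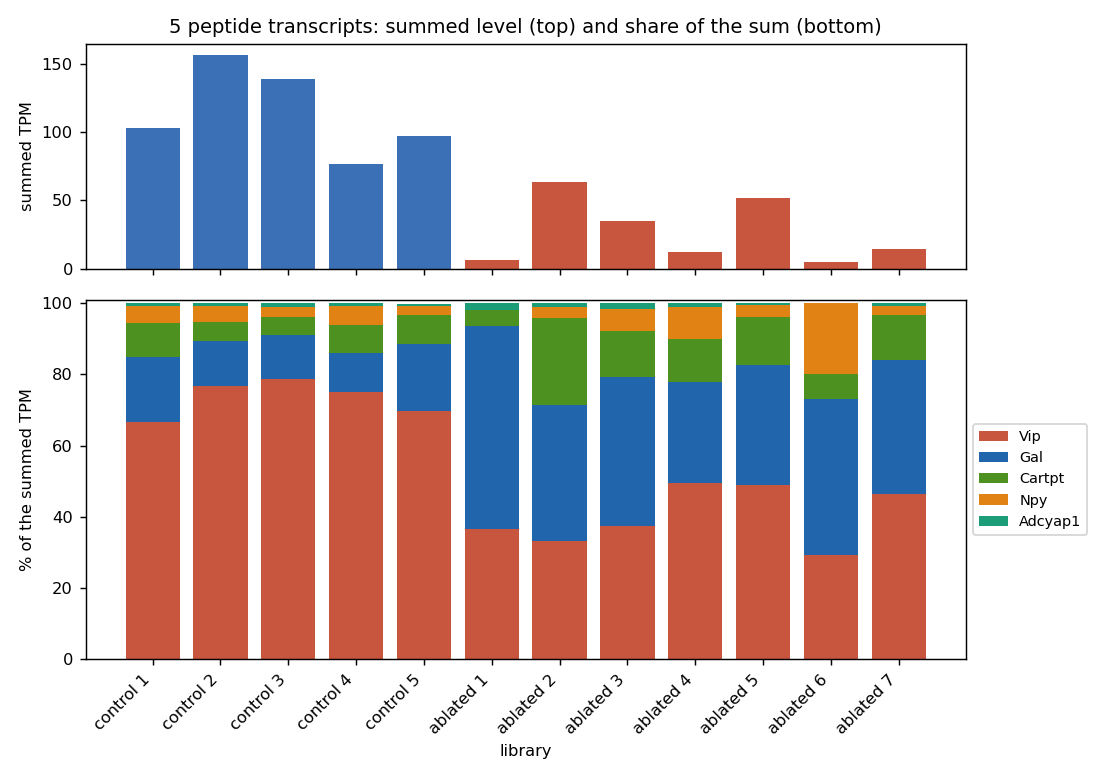
Summed TPM of the 5 peptide transcripts in each library (top, control in blue, ablated in red) and the share of that sum taken by each (bottom, %). Vip takes 66.7 to 78.8% in the control libraries and 29.2 to 49.5% in the ablated ones.

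Set against the pan-neuronal score, which fell by 1.74 on the log2(TPM + 0.5) scale, Vip fell further. Adcyap1 and Nos1 start so low on that scale that even a fall to 0 TPM would be smaller than the fall of the score. With this constant a positive difference was therefore fixed in advance for both. The test cannot decide whether they fell less far. Vip minus the score dropped by 1.64 (SE 0.49, exact permutation adjusted p = 0.0455 over 6 genes), with 6 of 7 ablated libraries under every control. Adcyap1 minus the score was higher by 0.76 (SE 0.17, exact adjusted p = 0.0152), with 6 of 7 ablated libraries above every control. With a constant of 0.1 neither passed: the difference was 0.28 for Adcyap1 (exact adjusted p = 0.716) and -1.39 for Vip (0.220). The Vip call was also lost against a score of 5 neuronal genes (-1.12, exact adjusted p = 0.110) and without control 1, 2 or 3 or ablated 3, 4 or 7 (0.0584 to 0.127), and the Adcyap1 call without control 2 (0.0545). Gal, Nos1, Cartpt and Npy differed from the score by 0.66, 0.47, 0.25 and 0.03 (exact adjusted p = 0.322, 0.136, 0.856 and 0.946). For Nos1 the result depended on the setting: it passed with a constant of 1 (0.67, exact adjusted p = 0.0114), against the 5-gene score (0.98, 0.0114) and without control 4 (0.59, 0.0485) or control 5 (0.61, 0.0455), and was -0.38 with a constant of 0.1 (0.561).

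In the rest of the nitric oxide pathway 0 of 9 tested genes rose or fell in the limma fit, with a median log2 fold change of -0.05 against 0.03 for all genes. At an unadjusted p under 0.05, 1 of the 9 (Pde5a) differed. Pde5a, the phosphodiesterase that breaks down cyclic GMP, measured 34.3 ± 5.13 TPM in control and 27.0 ± 5.15 TPM in ablated (limma adjusted p = 0.383). Nos3, the endothelial synthase, measured 1.15 ± 0.321 and 1.82 ± 0.914 TPM (adjusted p = 0.548). Gucy1b1, the shared subunit of the nitric oxide receptor, measured 8.37 ± 1.0 and 7.25 ± 2.15 TPM (adjusted p = 0.762).

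Among the receptors of the peptides, 1 of 6 tested fell and none rose, with a median log2 fold change of -0.65. Adcyap1r1, the PACAP-preferring receptor, fell 2.29-fold from 2.67 ± 0.488 to 1.17 ± 0.401 TPM (log2 fold change -0.95, limma adjusted p = 0.0263), without overlap. The call was lost without control 1, 2, 3 or 5 or ablated 4 (adjusted p = 0.0536 to 0.103). Galr2, a galanin receptor, measured 4.47 ± 1.27 and 1.86 ± 0.996 TPM (adjusted p = 0.0788). The receptors shared by VIP and PACAP stood at 111 ± 11.9 and 92.7 ± 16.7 TPM for Vipr1 (adjusted p = 0.458) and at 2.01 ± 0.235 and 1.80 ± 0.333 TPM for Vipr2 (0.797). Npy2r lay under the minimum and was picked out after its values were seen: it fell from 0.677 ± 0.204 to 0.171 ± 0.0926 TPM in the fit with no minimum (adjusted p = 0.00843).

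Of the 8 tested genes that process and store peptides, 3 fell and none rose; 7 of 8 log2 fold changes were negative, with a median of -0.82. Pcsk2, a prohormone convertase, fell 18.3-fold from 1.86 ± 0.809 to 0.102 ± 0.113 TPM (limma adjusted p = 0.000530). The granins Scg2 and Scg3 fell 4.33-fold from 24.7 ± 7.38 TPM (adjusted p = 0.00350) and 3.29-fold from 7.65 ± 2.32 TPM (0.00639). Pcsk1, the other convertase, measured 3.94 ± 0.687 and 1.79 ± 0.934 TPM (adjusted p = 0.0615). The convertase chaperone Scg5 measured 5.78 ± 0.818 and 3.69 ± 0.863 TPM (0.149), and the carboxypeptidase Cpe 208 ± 32.9 and 142 ± 39.0 TPM (0.300). Chgb, a granin that enteroendocrine cells also make, measured 66.2 ± 10.4 and 87.0 ± 14.6 TPM (adjusted p = 0.250), and Pam, which amidates peptides, 116 ± 5.14 and 113 ± 8.02 TPM (0.915).

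Relatives of the peptides that the gut makes in endocrine cells did not pass: 0 of 4 tested rose or fell, with a median log2 fold change of 0.24 and 1 of 4 (Ppy) at an unadjusted p under 0.05. Pyy, of the neuropeptide Y family, stood at 358 ± 39.7 and 419 ± 73.7 TPM (limma adjusted p = 0.628), and Ppy at 40.0 ± 14.8 and 70.6 ± 27.1 TPM (0.213). The 6 enteroendocrine markers summed to 761 to 1030 TPM in control and 746 to 1153 TPM in ablated, and 1 rose: Tph1, which makes serotonin, from 5.95 ± 1.11 to 11.7 ± 1.64 TPM (adjusted p = 0.00407).

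Of the excitatory and other enteric transmitter genes, 8 of 9 tested fell and none rose, with a median log2 fold change of -1.60. Slc18a3 and Slc5a7, the vesicular and plasma membrane transporters of cholinergic neurons, fell 9.86-fold (limma adjusted p = 0.000530) and 11.3-fold (0.00226). Nmu fell 15.4-fold from 15.2 ± 6.36 TPM (0.000791), Calcb 9.28-fold (0.000791) and Grp 6.60-fold (0.00819). Penk, the enkephalin precursor, fell 3.11-fold (0.0389), and Tac1 and Sst fell 2.22-fold (0.0134) and 2.18-fold (0.0138). The Penk call was lost without any 1 of the libraries other than control 4 and ablated 2 (0.0513 to 0.129), and those of Tac1 and Sst without control 2 or 3 (0.0505 to 0.0586). Chat, the acetylcholine synthase, measured 0.657 ± 0.282 and 0.568 ± 0.178 TPM (0.930). In the pan-neuronal list 12 of 15 fell and none rose, with a median of -1.65; Nefl and Gap43 were the calls there that leaving out single libraries undid. Whether transmitter classes differ in response was not tested beyond the pairs above.

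The genes most like Nos1 and Vip across the 12 libraries were found by the root mean square difference of log2(TPM + 0.5) set to each gene's control mean. For Nos1, among 13635 genes, these were Tub at 0.24, Faim2 at 0.29 and Syn1 at 0.29. For Vip, among 13634 genes, they were Prph, an intermediate filament of peripheral neurons, at 0.57, and the peptides Grp at 0.71 and Nmu at 0.72. Prph fell 13.8-fold (limma adjusted p = 0.000706). Tub fell 10.2-fold (0.000591), Faim2 8.03-fold (0.00117) and Syn1 4.00-fold (0.00176), from control means of 1.04, 1.58 and 2.06 TPM. Because the scale compresses falls of low genes, likeness to Nos1 does not mean an equal fold change.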

How the data were processed

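RNA of 5 control and 7 ablated colon libraries was measured. Per the labels' protocols, polyadenylated RNA was made into directional libraries. The submitters' processing notes name bcl2fastq 2.17, HISAT, featureCounts and the build mm10. The TPM values were made by the authors and deposited per gene; the 12 per-sample files equal the series table. The authors also deposited a comparison made with edgeR, holding p-value, FDR, log2 fold change, log2 mean level and a test score for each gene, whose version and filter are not given in the sources used here. No column was left out.

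The 6 genes and the gene lists were chosen with earlier results of these data known. Named genes are the 6 transmitters, every list gene that passed (or up to 3 with the smallest p where none did), and the 3 most similar genes with a control mean of at least 1 TPM for each transmitter that passed; other list genes were named after their values were seen. The limma package (3.58.1, under R 4.3.3) fitted log2(TPM + 0.5) of each gene by group, with moderated variances that follow the mean level, two-sided p and 95% intervals. A change of a low gene is understated on that scale. Whole reads were recovered from the steps of the TPM values for all 22842 genes above 0, within 0.05 read. The annotated exon length was used where it gave whole reads, and otherwise the shortest length that did. For genes above 0 in few libraries such a length is easily found, so their counts may be too low. The recovered reads gave depth, the reads per gene, the limits for counts of 0 and the voom fit. Pairs of genes and differences from the neuronal score were tested by exact permutation of group labels. Permutations were run in Python 3.11.15 (SciPy 1.17.1, numpy 2.4.6), and the fit was tested on simulated data. Gene positions are from GENCODE on mm10; promoters are from RefSeq on GRCm38.p6 and matched all 6 genes by gene ID. Alternatives changed the constant (1, 0.1), minimum, scaling, variance model, covariates, neuronal list, replicate block and libraries.

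Same-numbered libraries were compared as possible pairs by their deviations from the group means. No clear pairing was seen, which cannot decide whether they belong together.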

Additional observations from a re-analysis of the deposited data

Results flagged for a closer look

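Gal in control 4, at 8.43 TPM, lay far below the other 4 control libraries, which had 16.9 to 20.1 TPM: its gap to the nearest was 0.728 of the range of the group. Cartpt in ablated 2, at 15.6 TPM, lay far above the other 6 ablated libraries, of which the next was ablated 5 at 6.85 TPM (gap 0.571 of the range). In all 12 groups of values were examined this way, and chance flags about 1 in 20.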

How the results depend on the processing

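Vip passed under all 26 alternatives (limma adjusted p = 0.00116 to 0.0424), Nos1 under 24 of 25, Npy under 9 of 26, Adcyap1 under 4 of 25, and Gal and Cartpt under none of 26 (0.161 to 0.745 and 0.0662 to 0.669). All 6 log2 fold changes kept their direction. The 2 calls among the transmitter genes became 1 with a minimum of 1 TPM, which leaves Nos1 and Adcyap1 untested, and 4 with a weight per library, with an epithelial covariate and with a mitochondrial covariate; it was 3 with a constant of 1, both other scalings and the smooth muscle covariate, and 2 to 3 without single libraries. Over all genes the 231 calls (70.6% of them lower in ablated) became 349 with no minimum (78.2%), 1092 with a weight per library (40.1%), 1190 with the epithelial covariate (57.6%), 693 with the mitochondrial covariate (51.8%) and 264 with voom (81.8%); the cause was not tested. Without single libraries they ran from 128 (control 2 left out) to 328 (ablated 1), with 137 without control 3. Of the 5 pairs, 3 passed with a constant of 0.1 and 4 to 5 without single libraries. Of the 2 genes that differed from the neuronal score, 0 did with a constant of 0.1 (0 to 3 without single libraries). There the difference turned to -0.38 for Nos1 and -0.17 for Npy; without single libraries it ran from -0.11 to 0.29 for Npy and from -0.09 to 0.56 for Cartpt. Nos1, Adcyap1 and Npy rest on few reads, so their size depends most on the constant.

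With the replicate number as a block, 84 genes were called (82.1% lower) and 1 transmitter gene, Vip; Nos1 had an adjusted p of 0.0602. In the paired version of the permutation tests, 0 pairs and 0 differences from the neuronal score passed, since 32 sign changes cannot give a p under 0.0625. Deviations of same-numbered libraries correlated at 0.01, 0.36, -0.27, 0.20 and 0.16 for numbers 1 to 5, and only control 2 correlated best with its own number. Such correlations cannot decide whether same-numbered libraries belong together, and the sources used here do not state it.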
